A study of Mus musculus with 71 samples.

Results

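Hnrnpll, Eef1akmt1, Cgas, Rgs10, Dennd3, Ptpn3, Chdh and Orm2, 8 of the 25579 genes quantified in mouse pro-B cells, were chosen by their higher mRNA level in pro-B cells lacking the octapeptide of the transcription factor Pax5 (Pax5 ∆OP/∆OP) than in wild-type (+/+) pro-B cells. The ∆OP/∆OP against +/+ contrast made the choice, so it is described and not tested, and the genes are followed across the other Pax5 genotypes and across early T cell development, where all 8 were found among 24420 genes. All mice were on a C57BL/6 background according to the labels, and ages were not given there. Pro-B cells were sorted directly from bone marrow of Pax5 +/+ mice (n = 5), of homozygous ∆OP, ∆HD and ∆OP,HD mice (n = 2 each), of mice lacking the C-terminal regulatory domains CRD1, CRD2 or both in the homozygous state (∆CRD1/∆CRD1, ∆CRD2/∆CRD2, ∆CRD1,2/∆CRD1,2, n = 2 each) and of mice with the same 3 alleles over a null allele (∆CRD1/−, ∆CRD2/−, ∆CRD1,2/−, n = 2 each). Progenitors without Pax5 came from Vav-Cre fl/fl mice (n = 2), in which the Vav-Cre transgene deletes the floxed allele throughout the blood lineages. A separate experiment (n = 2 each) held heterozygous Vav-Cre fl/+ pro-B cells, Vav-Cre Prd/fl progenitors, whose only remaining allele makes the paired domain alone, and Vav-Cre fl/fl progenitors, the last 2 groups being sorted by an alternative gate. Cells of the early T cell stages came from wild-type mice and, at 1 stage, also from Rag2−/− mice (n = 2), which cannot rearrange their antigen receptor genes. The ∆CRD1,2/− cells and the Pax5-deficient progenitors were sorted with another combination of surface markers than the remaining pro-B cells. The ∆OP allele was made in embryonic stem cells, the ∆OP,HD allele by editing ∆OP/∆OP zygotes, and the other deletions by editing zygotes of a C57BL/6 and CBA cross, each followed by backcrossing.

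Pax5 commits lymphoid progenitors to the B cell fate by activating B cell genes and silencing genes of other lineages. It binds DNA through its paired domain, and the central octapeptide is a short docking motif for corepressors of the Groucho family, which bring histone deacetylases to the bound gene. The homeodomain-like region (HD) next to it contacts the basal transcription factor TBP. In the C-terminal region earlier reporter-gene experiments had found separate activating and inhibitory sequences. The authors report that CRD1 and CRD2 each take part in both activation and repression. The genes studied here have unlike functions. Hnrnpll encodes an RNA-binding protein that controls alternative splicing of the phosphatase CD45, and Eef1akmt1 a lysine methyltransferase acting on the translation factor eEF1A. Cgas is the cytosolic DNA sensor upstream of STING, Rgs10 is a regulator that accelerates GTP hydrolysis by G proteins, Dennd3 an exchange factor for the GTPase Rab12, and Ptpn3 a tyrosine phosphatase with a FERM domain. Chdh encodes choline dehydrogenase, a mitochondrial enzyme of choline oxidation, and Orm2 encodes orosomucoid, a secreted acute-phase protein.

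The octapeptide is encoded in exon 5 of Pax5, which lies on the minus strand at chr4:44679440-44679568 (GRCm38) and is printed to show the short stretch whose loss defines the gene set. The 24 capital bases are the 8 codons of residues 179 to 186 of the 391-residue protein, at chr4:44679486-44679509, and the exact bases removed in the mutant allele were not read here.
Pax5 exon 5: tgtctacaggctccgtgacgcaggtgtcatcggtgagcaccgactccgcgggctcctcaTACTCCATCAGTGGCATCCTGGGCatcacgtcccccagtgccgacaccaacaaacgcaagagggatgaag
Promoter windows from 250 bases before to 50 bases after the RefSeq start (GRCm38.p6) are printed for 3 members that behaved differently from each other in the results that follow, with any TATAAA match in capitals.
Cgas, chr9:78443188-78443487, minus strand: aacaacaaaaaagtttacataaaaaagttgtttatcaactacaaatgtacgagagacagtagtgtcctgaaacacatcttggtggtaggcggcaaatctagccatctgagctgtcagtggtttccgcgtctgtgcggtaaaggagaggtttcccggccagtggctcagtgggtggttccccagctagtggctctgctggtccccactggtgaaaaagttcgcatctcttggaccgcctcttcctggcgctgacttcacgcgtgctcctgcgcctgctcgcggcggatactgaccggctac
Rgs10, chr7:128418123-128418422, minus strand: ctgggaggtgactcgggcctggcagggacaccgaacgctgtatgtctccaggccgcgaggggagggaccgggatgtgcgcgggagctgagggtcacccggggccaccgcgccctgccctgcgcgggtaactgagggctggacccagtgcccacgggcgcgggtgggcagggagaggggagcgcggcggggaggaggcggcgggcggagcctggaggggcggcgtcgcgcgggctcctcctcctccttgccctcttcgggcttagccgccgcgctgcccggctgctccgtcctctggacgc
Orm2, chr4:63362199-63362498, plus strand: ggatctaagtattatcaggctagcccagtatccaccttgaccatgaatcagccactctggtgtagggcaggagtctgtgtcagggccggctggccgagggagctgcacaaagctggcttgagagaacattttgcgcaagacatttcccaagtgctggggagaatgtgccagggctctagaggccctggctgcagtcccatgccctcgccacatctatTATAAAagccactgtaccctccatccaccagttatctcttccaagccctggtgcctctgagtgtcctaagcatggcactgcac
The Cgas window held 16 CpG dinucleotides and the Rgs10 window 34, against a median of 7 over 32851 promoters, while the Orm2 window held 4. Of the members with an entry in the promoter table (5 of 8), only Orm2 contained TATAAA, 33 bases before its start, a sequence present on either strand in 13.6% of all promoters. The letters GCGTGAC, a core of the sequence bound by the paired domain, were searched on both strands and occurred in none of the 5 members, against 2.09% of all promoters. Hnrnpll, Dennd3 and Eef1akmt1 had no entry.

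The genes lay on 6 chromosomes. In GRCm38 coordinates (GENCODE M21) Hnrnpll lay at chr17:80029487-80062334, Eef1akmt1 at chr14:57549597-57571612, Cgas at chr9:78430526-78443237, Rgs10 at chr7:128373621-128418758, Dennd3 at chr15:73512560-73572242 and Chdh at chr14:30009023-30040527. Ptpn3 (chr4:57190841-57301837) and Orm2 (chr4:63362449-63365878) shared a chromosome with Pax5 (chr4:44524757-44710487), at distances of 12.5 and 18.7 Mb. Strand use in counting was not given in the sources used here, and Chdh overlapped the opposite-strand gene Cacna1d by 589 bases, Ptpn3 the opposite-strand RNA Gm12536 by 1742 bases and Rgs10 the same-strand transcript Gm15503, so reads from these overlaps cannot be told apart.

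Levels are given as TPM, reads that the authors scaled for gene length and library size. The 31 pro-B and progenitor libraries held between 10018678 and 43784791 reads assigned to genes. The summed level of 13 pro-B markers ranged from 7640 TPM in a Pax5-deficient library to 28031 TPM. The gene total of Pax5 counts exons outside the deleted parts and so does not check the genotypes, being 342 to 524 TPM in +/+ and 1609 and 1697 TPM in Vav-Cre fl/fl. A list of 12 granulocyte genes, markers of another lineage, summed to between 109 and 15710 TPM, and 6 libraries exceeded 5000 TPM, namely both ∆OP/∆OP libraries, ∆OP,HD/∆OP,HD replicate 2, +/+ replicate 4, ∆CRD2/− replicate 1 and ∆CRD2/∆CRD2 replicate 1. Fewer cells of a type and less RNA per cell cannot be told apart in such bulk samples. Libraries had been read at 50 or 100 nt. With read length as a term of the model, the 100-nt mutants were in effect compared with +/+ replicates 3 and 4, and ∆CRD1/∆CRD1 and Vav-Cre fl/fl (50 nt) with +/+ replicates 1, 2 and 5. A gene is called when its adjusted p is under 0.05.

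In the contrast that chose the genes, Hnrnpll stood at 19.0 and 24.2 TPM in ∆OP/∆OP and at 1.23 and 2.40 TPM in the +/+ replicates 3 and 4, which were sequenced alongside. Eef1akmt1 was at 46.4 and 41.1 TPM against 7.99 and 8.81 TPM, and Cgas at 10.1 and 9.75 TPM against 1.85 and 2.77 TPM. In each of these genes both mutant values exceeded both controls. Rgs10 reached 132 and 126 TPM against 21.5 and 25.4 TPM. Dennd3 was the member nearest to the fold limit (3-fold), with 43.7 and 39.3 TPM against 12.7 and 13.1 TPM, a 3.19-fold difference. The genes Icosl and Bcar3 lay just outside at 2.87-fold and 2.84-fold. Ptpn3 was at 10.9 and 9.76 TPM against 0.898 and 0.815 TPM, and Orm2 at 15.7 and 15.7 TPM against 0.624 and 0.0907 TPM, the last of these values resting on 1 read. Chdh was the member nearest to the level limit (5 TPM), at 4.67 and 5.89 TPM (mean 5.28 TPM) against 0.383 and 0.798 TPM. With limits of 3-fold, a mean of 5 TPM and an adjusted p under 0.05, 13 genes passed, of which 7 were members. The others were Mir6935 (55.8-fold), Klhl14 (7.18-fold), 4930426D05Rik (4.85-fold), Adamtsl2 (4.05-fold), H1fx (3.29-fold) and 2510009E07Rik (3.17-fold), so these limits alone did not define the set. Chdh did not pass the last of these limits. Over all 14000 genes tested, 0.529% were called higher in ∆OP/∆OP, which is background to the choice and not a result.

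**Figure D1:**
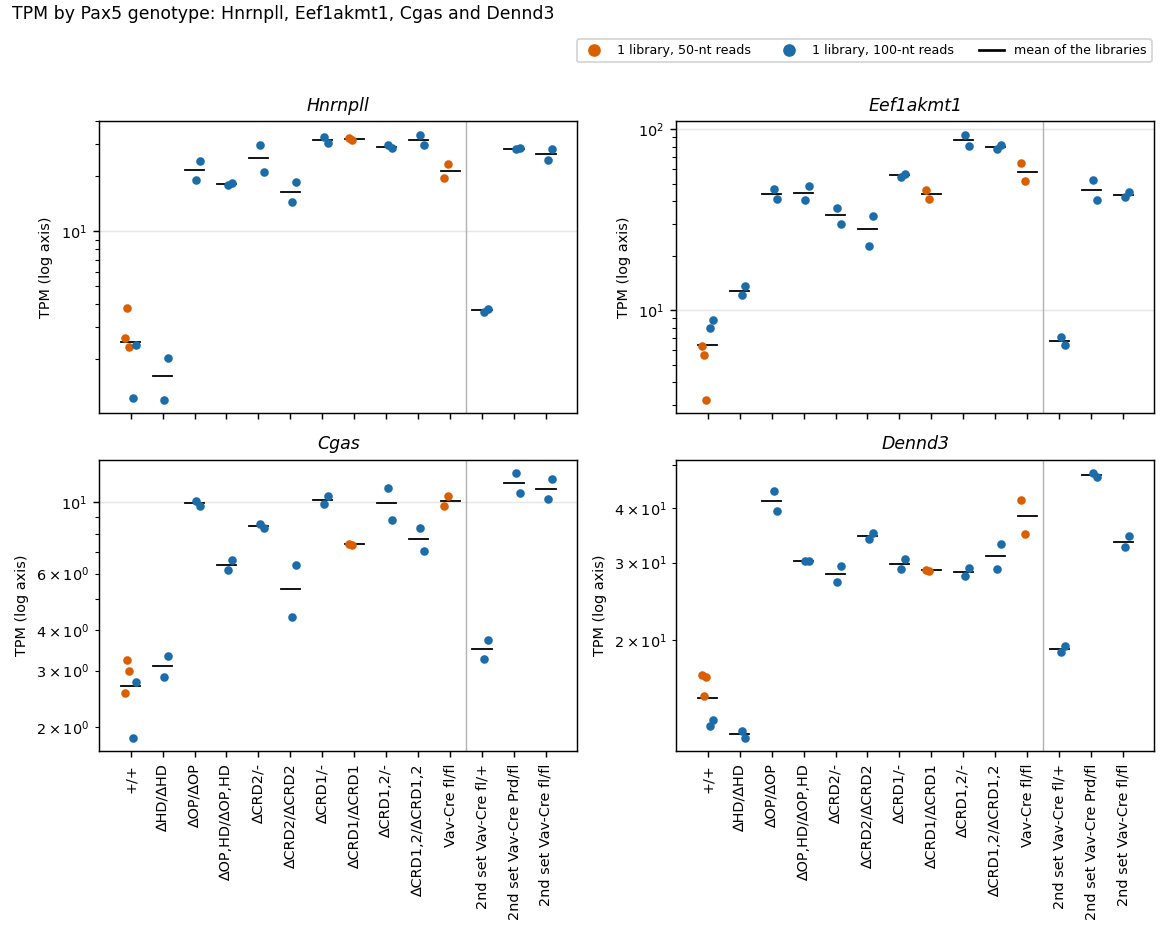
Level in TPM (log axis) of Hnrnpll, Eef1akmt1, Cgas and Dennd3 in every library, by genotype, with each point 1 library (orange for 50-nt and blue for 100-nt reads), short lines for group means and the separate experiment as "2nd set" on the right. The +/+ and ∆HD/∆HD points lie low in all 4 panels (Hnrnpll at 1.20 to 3.82 TPM) and the points of every other homozygous or hemizygous mutant and of the Pax5-deficient progenitors lie higher (Hnrnpll at 14.5 to 33.9 TPM).

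The ∆OP,HD/∆OP,HD against ∆HD/∆HD comparison asks what octapeptide loss did in cells that already lacked the HD. Its group means came only from libraries that had no part in choosing the genes. Its SE and p-values rest on a spread estimated from 25 samples, among them the libraries that made the choice. Hnrnpll, Rgs10, Eef1akmt1 and Dennd3 were higher when the octapeptide was missing as well, by 1.31 to 3.45 on the log2 scale, whereas Ptpn3, Chdh and Orm2 did not pass the test. Hnrnpll was at 18.0 and 18.4 TPM in ∆OP,HD/∆OP,HD and at 1.20 and 2.04 TPM in ∆HD/∆HD, a log2 difference of 3.45 ± 0.29 (SE, n = 2 against 2, limma with Benjamini-Hochberg adjustment over all genes, adjusted p = 6.27e-06). Rgs10 was at 126 and 144 TPM against 23.4 and 21.4 TPM (2.58 ± 0.18 on the log2 scale, limma adjusted p = 9.87e-07). In both genes the groups were far apart and no values overlapped. Eef1akmt1 was at 40.5 and 48.3 TPM against 12.1 and 13.5 TPM (1.78 ± 0.24 on the log2 scale, limma adjusted p = 0.00249). This call was lost in a model of these groups and +/+ alone (limma adjusted p = 0.194). It was also lost without the granulocyte-rich libraries, a fit that left only replicate 1 of ∆OP,HD/∆OP,HD. Dennd3 was at 30.3 and 30.2 TPM against 12.4 and 11.9 TPM, a log2 difference of 1.31 ± 0.11 (limma adjusted p = 6.27e-06). Markers of some other lineages moved in the same direction without being called. The granulocyte sum was 564 and 6308 TPM in ∆OP,HD/∆OP,HD against 409 and 1613 TPM, and all 12 of its genes had positive differences (median 1.22 on the log2 scale). The same held for 11 of 11 macrophage and monocyte genes (189 and 558 against 156 and 214 TPM in sum, median 1.39) and for the 6 erythroid genes that could be tested (123 and 345 against 92.8 and 88.1 TPM, median 1.08). Of 7 basophil and mast cell genes tested, 5 had positive differences (median 0.65). Other lists did not rise. Positive differences were found in 2 of 7 plasmacytoid dendritic cell genes (median −0.57), 3 of 7 T cell genes (−0.0044) and 1 of 4 NK and innate lymphoid genes (−0.38). The fit without the granulocyte-rich libraries set ∆OP,HD/∆OP,HD replicate 1 alone against both ∆HD/∆HD libraries. Its log2 difference was 3.43 for Hnrnpll, 2.49 for Rgs10 and 1.31 for Dennd3. With a single ∆OP,HD/∆OP,HD library this group had no spread of its own, so only the sizes are given.

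Only 10 of 14000 genes (0.0714%) were called higher in that comparison, and 4 of them were members. The other 6 were Zkscan16, Crhbp, Dnajb5, Slc15a3, Cenpv and Trmo, of which Zkscan16, Dnajb5 and Trmo lie on the Pax5 chromosome within 14.2 Mb of the gene. Cgas was at 6.18 and 6.61 TPM against 2.87 and 3.32 TPM, so that its groups did not overlap, but its log2 difference of 1.02 ± 0.22 missed the threshold (limma adjusted p = 0.106). It passed with median-of-ratios scaling (adjusted p = 0.0396) and with edgeR on recovered reads (adjusted p = 0.0218). Ptpn3 stood at 13.7 and 11.9 TPM against 11.3 and 11.7 TPM, with a log2 difference of 0.15 and a 95% interval from −0.61 to 0.91. Orm2 was at 13.7 and 10.8 TPM against 2.97 and 10.4 TPM, an interval from −0.26 to 2.48 on the log2 scale, and Chdh at 0.330 and 1.26 TPM against 0.434 and 1.61 TPM, an interval from −2.34 to 1.69.

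**Figure D2:**
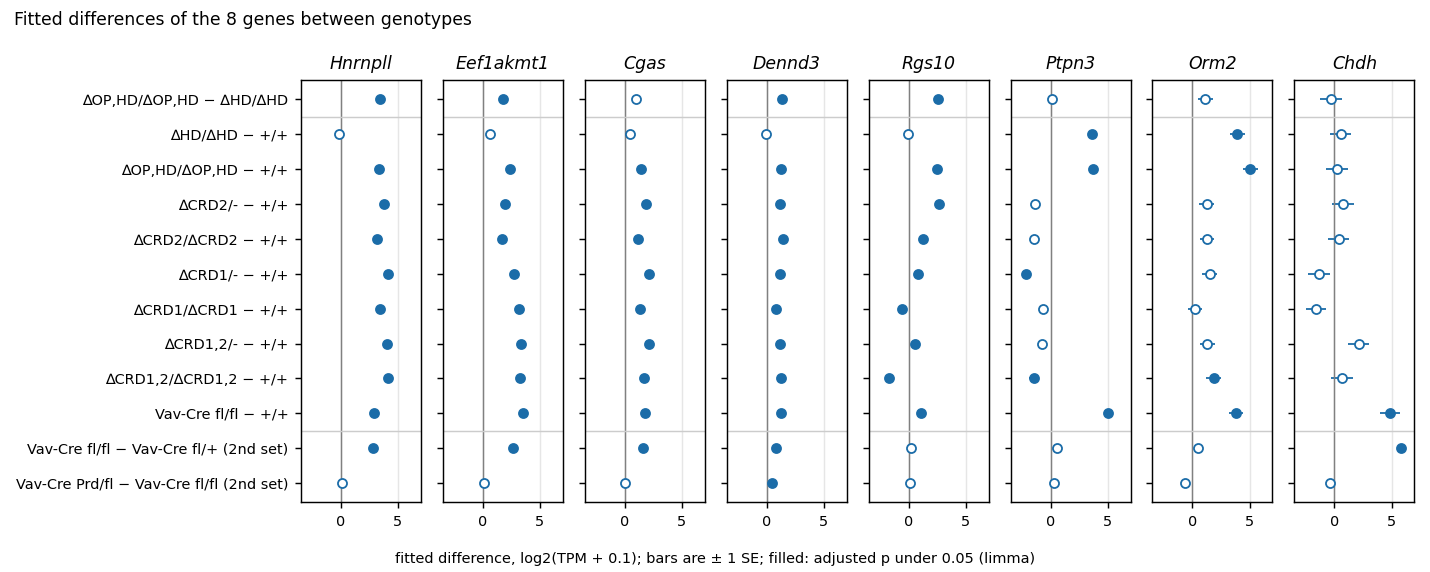
Log2 difference (fitted on log2 of TPM plus 0.1) of each member for the comparisons tested, with bars of 1 SE and filled symbols for an adjusted p under 0.05. Hnrnpll, Rgs10, Eef1akmt1 and Dennd3 are filled in ∆OP,HD/∆OP,HD against ∆HD/∆HD, and Ptpn3 and Orm2 in ∆HD/∆HD against +/+.

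Deleting the HD alone separated the set in a different way. Of the 8 genes only Ptpn3 and Orm2 were called in ∆HD/∆HD, where 0.629% of all genes were called higher than in +/+. The test set them against +/+ replicates 3 and 4, whose low values also entered the choice of the genes. Ptpn3 was at 11.3 and 11.7 TPM in ∆HD/∆HD and between 0.421 and 0.898 TPM in all 5 +/+ libraries (log2 difference 3.60 ± 0.36, limma adjusted p = 0.000218). Orm2 was at 2.97 and 10.4 TPM, above each +/+ value of 0.779, 0.990, 0.624, 0.0907 and 1.68 TPM (3.93 ± 0.65, limma adjusted p = 0.0044). It lost its call without +/+ replicate 4, without ∆HD/∆HD replicate 2 or without the granulocyte-rich libraries. Each of these fits left a single 100-nt library on 1 side of the comparison. The +/+ values of Orm2 rested on 1 to 13 reads. Hnrnpll (1.20 and 2.04 TPM), Rgs10 (23.4 and 21.4 TPM) and Dennd3 (12.4 and 11.9 TPM) lay within or just below the range of the +/+ libraries, and their log2 intervals were −0.74 to 0.49, −0.44 to 0.32 and −0.32 to 0.15. Eef1akmt1, at 12.1 and 13.5 TPM, lay above all +/+ values of 5.67, 3.21, 7.99, 8.81 and 6.33 TPM, yet its log2 difference of 0.60 ± 0.24 missed the threshold (limma adjusted p = 0.353). Against the +/+ replicates 1, 2 and 5 alone, which the choice did not use but which were read at 50 nt and not 100 nt, 5 genes were called. These were Ptpn3 (4.13 on the log2 scale, limma adjusted p = 5.14e-06), Orm2 (2.25, adjusted p = 0.0108) and Eef1akmt1 (1.38, adjusted p = 0.00145), which were higher, and Hnrnpll (−0.82, adjusted p = 0.0246) and Dennd3 (−0.39, adjusted p = 0.0201), which were lower.

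In ∆OP,HD/∆OP,HD against +/+, 7 of the 8 genes were higher, all but Chdh, beside 1.11% of all genes. This comparison shares its +/+ libraries with the choice of the genes. Set against the 50-nt +/+ replicates 1, 2 and 5 alone the count was again 7, with log2 differences of 2.63 for Hnrnpll, 3.16 for Eef1akmt1, 1.11 for Cgas, 2.13 for Rgs10, 0.92 for Dennd3, 4.28 for Ptpn3 and 3.36 for Orm2. Chdh, at 0.330 and 1.26 TPM, lay just below and just above the +/+ range of 0.383 to 1.17 TPM.

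The C-terminal mutants were compared with +/+ to ask whether the same genes also depended on CRD1 and CRD2. Hnrnpll, Eef1akmt1, Cgas and Dennd3 were called higher in all 6 C-terminal genotypes, and Rgs10 took both directions. Ptpn3 and Orm2 were called in few of these genotypes and Chdh in none. The comparisons of the 100-nt genotypes share +/+ replicates 3 and 4 with each other and with the choice of the genes, whereas ∆CRD1/∆CRD1 was set against replicates 1, 2 and 5. In ∆CRD2/−, 5 of 8 members were called higher (0.871% of all genes), in ∆CRD1/− 5 (5.66%), in ∆CRD1,2/− 5 (10.1%), in ∆CRD2/∆CRD2 5 (0.114% of all genes in either direction), in ∆CRD1,2/∆CRD1,2 5 (10.7%) and in ∆CRD1/∆CRD1 4 (4.53%). With only the compared libraries and +/+ in the model, 2 of the 5 were called in ∆CRD2/−, namely Hnrnpll (limma adjusted p = 0.0142) and Rgs10 (adjusted p = 0.00535). In ∆CRD2/∆CRD2 these were 5 of the 14 genes called higher. None of the 8 was called when the model held only these libraries and +/+. Fewer of the 5 were called without +/+ replicate 3 or without the granulocyte-rich libraries. Both of these fits left a single 100-nt +/+ library, and the latter also a single ∆CRD2/∆CRD2 library.

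Hnrnpll was at 29.7 and 21.1 TPM in ∆CRD2/−, 32.8 and 30.5 TPM in ∆CRD1/− and 29.6 and 28.7 TPM in ∆CRD1,2/−. In the homozygous mutants it was at 14.5 and 18.6 TPM (∆CRD2), 32.5 and 31.8 TPM (∆CRD1) and 33.9 and 29.7 TPM (∆CRD1,2). All 12 values lay above the highest +/+ value, 3.82 TPM. Its log2 differences from +/+ ran from 3.18 ± 0.29 in ∆CRD2/∆CRD2 to 4.12 ± 0.29 in ∆CRD1/− and in ∆CRD1,2/∆CRD1,2. Between mutants, ∆CRD1,2/∆CRD1,2 exceeded ∆CRD2/∆CRD2 by 0.95 ± 0.29 on the log2 scale (limma adjusted p = 0.0206; 12.5% of all genes were called higher), whereas ∆CRD1/− and ∆CRD2/− differed by 0.34 with an interval from −0.28 to 0.95.

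Eef1akmt1 spread more widely among these mutants. It was at 36.9 and 29.8 TPM in ∆CRD2/−, 54.6 and 56.6 TPM in ∆CRD1/− and 93.3 and 80.8 TPM in ∆CRD1,2/−, so that the 3 genotypes did not overlap. The homozygous series gave 22.7 and 33.3 TPM for ∆CRD2, 46.0 and 41.3 TPM for ∆CRD1 and 78.0 and 81.6 TPM for ∆CRD1,2, in the same order. Its ∆CRD1 libraries were read at 50 nt and the others at 100 nt. The +/+ mean of Eef1akmt1 was 5.07 TPM at 50 nt and 8.40 TPM at 100 nt, and the place of ∆CRD1 in this order was not tested. The double deletion exceeded the CRD2 deletion by 1.39 ± 0.24 on the log2 scale over the null allele (limma adjusted p = 0.000526, 7.61% of all genes called higher) and by 1.54 ± 0.24 in homozygotes (adjusted p = 0.000147). The neighbouring steps, ∆CRD1/− over ∆CRD2/− at 0.74 (adjusted p = 0.0851) and ∆CRD1,2/− over ∆CRD1/− at 0.64 (adjusted p = 0.154), did not pass limma's test.

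Cgas ranged from 4.39 TPM in a ∆CRD2/∆CRD2 library to 11.1 TPM in a ∆CRD1,2/− library, above the highest +/+ value of 3.23 TPM in all 12 C-terminal libraries. Its log2 difference from +/+ was smallest in ∆CRD2/∆CRD2 (1.19 ± 0.22, limma adjusted p = 0.0417) and largest in ∆CRD1/− (2.12 ± 0.22, adjusted p = 3.20e-06). Dennd3 kept to a narrow band of 27.0 to 35.0 TPM in the same libraries, against 12.7 to 16.6 TPM in +/+, and its differences were 0.85 to 1.41 on the log2 scale. In the 6 comparisons between C-terminal genotypes neither gene was called. The differences farthest from 0 were −0.29 for Dennd3 (interval −0.52 to −0.05, limma adjusted p = 0.474) and 0.66 for Cgas (0.20 to 1.12, adjusted p = 0.314), both in ∆CRD2/− against ∆CRD2/∆CRD2.

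**Figure D3:**
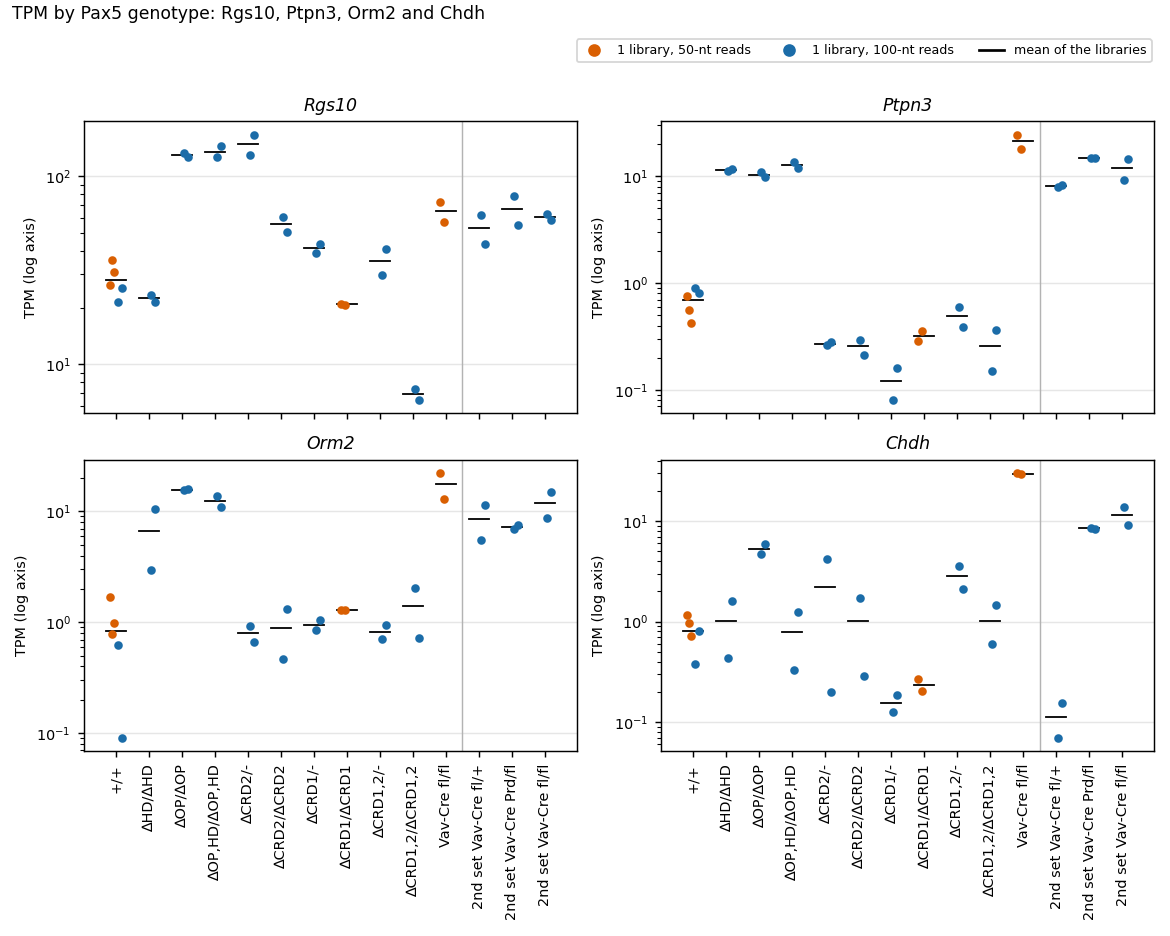
Level in TPM (log axis) of Rgs10, Ptpn3, Chdh and Orm2 in every library, by genotype, drawn in the same way. Rgs10 is highest in ∆OP/∆OP, ∆OP,HD/∆OP,HD and ∆CRD2/− (126 to 167 TPM) and lowest in ∆CRD1,2/∆CRD1,2 (6.48 and 7.38 TPM), while Ptpn3 is high in ∆HD/∆HD and low in every C-terminal mutant.

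Rgs10 differed most among the C-terminal mutants. It was at 129 and 167 TPM in ∆CRD2/−, beside 126 to 144 TPM in ∆OP/∆OP and ∆OP,HD/∆OP,HD, but at 39.1 and 43.6 TPM in ∆CRD1/− and at 29.7 and 41.2 TPM in ∆CRD1,2/−. Loss of CRD1 together with CRD2 went with a lower Rgs10 level than loss of CRD2 alone, at −2.07 ± 0.18 on the log2 scale over the null allele (limma adjusted p = 3.09e-07, 15.6% of all genes called lower) and −2.98 ± 0.18 in homozygotes (adjusted p = 3.42e-09, 18.5%). Loss of CRD1 alone was likewise below loss of CRD2 alone over the null allele (−1.83 ± 0.18, limma adjusted p = 8.41e-06, 3.89%). In homozygotes Rgs10 was at 60.4 and 50.7 TPM (∆CRD2), 20.9 and 20.7 TPM (∆CRD1) and 7.38 and 6.48 TPM (∆CRD1,2). The ∆CRD1/∆CRD1 libraries were read at 50 nt, where +/+ lay at 26.2 to 35.8 TPM. The other homozygous mutants were read at 100 nt, where +/+ lay at 21.5 and 25.4 TPM. In ∆CRD1,2/∆CRD1,2 the gene was therefore lower than in +/+ (−1.74 ± 0.18, limma adjusted p = 1.66e-06), a direction opposite to that in ∆OP/∆OP. The calls of Rgs10 in ∆CRD1/− (0.82 ± 0.18), ∆CRD1,2/− (0.58 ± 0.18) and ∆CRD1/∆CRD1 (−0.56 ± 0.16, beside 5.10% of all genes called lower) were each lost in several alternatives, among them leaving out +/+ replicate 3 for the first pair (limma adjusted p = 0.069 and 0.162) and +/+ replicate 1 for the last (adjusted p = 0.133).

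Rgs10 also differed between the hemizygous and homozygous forms of a deletion. It was higher in ∆CRD2/− than in ∆CRD2/∆CRD2 by 1.41 ± 0.18 on the log2 scale (limma adjusted p = 0.000936) and higher in ∆CRD1,2/− than in ∆CRD1,2/∆CRD1,2 by 2.32 ± 0.18 (adjusted p = 5.18e-06). In both comparisons Rgs10 was the only member called, beside 0.143% and 0.0786% of all genes called higher. The granulocyte sum was 15710 and 1013 TPM in ∆CRD2/−, 8678 and 567.7 TPM in ∆CRD2/∆CRD2, 1677 and 1018 TPM in ∆CRD1,2/− and 1846 and 519 TPM in ∆CRD1,2/∆CRD1,2, each pair in the order of the Rgs10 values. The library with the higher sum held the higher Rgs10 level in both homozygous genotypes and the lower one in both hemizygous genotypes. The ∆CRD1,2/− cells were sorted by another gate. The part of the gate and of the granulocyte genes in the result was not tested, and ∆CRD1/− was not compared with ∆CRD1/∆CRD1, which was read at another length.

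Ptpn3 was low in every C-terminal mutant, at 0.0813 to 0.591 TPM in 12 libraries against 0.421 to 0.898 TPM in +/+. It was called lower in ∆CRD1/− (−2.14 ± 0.36 on the log2 scale, limma adjusted p = 0.000522, beside 6.71% of all genes) and in ∆CRD1,2/∆CRD1,2 (−1.49 ± 0.36, adjusted p = 0.00495, beside 15.6%), the latter not without ∆CRD1,2/∆CRD1,2 replicate 1 (adjusted p = 0.0893). Orm2 was at 0.469 to 2.06 TPM in the C-terminal mutants, from 5 to 20 reads, and only ∆CRD1,2/∆CRD1,2 was called (1.84 ± 0.65, limma adjusted p = 0.045), a call lost in 12 of its alternatives. In Pax5-deficient progenitors, by contrast, Ptpn3 stood at 24.6 and 18.0 TPM and Orm2 at 22.1 and 12.8 TPM. Against ∆CRD1/∆CRD1, which was sequenced with the same read length, these progenitors were higher by 5.65 ± 0.36 for Ptpn3 (limma adjusted p = 4.79e-09) and 3.61 ± 0.65 for Orm2 (adjusted p = 0.000499), where 12.5% of all genes were called higher. Ptpn3 was also above its ∆CRD1,2/− level in them (5.72 ± 0.48, limma adjusted p = 2.89e-06, 3.23% called higher).

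Since Ptpn3 and Orm2 lie on the chromosome of the edited gene, all genes within 20 Mb of Pax5 were counted. In ∆HD/∆HD, 10 of 184 such genes (5.43%) were called higher than in +/+ and 6 (3.26%) lower, against 0.565% and 0.333% of the 13816 genes elsewhere. Apart from Ptpn3 and Orm2, 8 neighbours were called higher. In ∆OP,HD/∆OP,HD the shares near Pax5 were 4.35% higher and 4.89% lower, against 1.06% and 0.615% elsewhere, and in ∆OP,HD/∆OP,HD against ∆HD/∆HD they were 1.63% in each direction, against 0.0507% and 0.0217%. In the ∆OP/∆OP contrast that chose the genes they were 2.72% and 4.35%, against 0.499% and 0.442%. In ∆CRD2/− the shares higher were 1.09% near Pax5 and 0.869% elsewhere, and in ∆CRD2/∆CRD2 0 of 184 neighbours were called in either direction. The part of flanking chromosome 4 DNA from the founder animals in the Ptpn3 and Orm2 levels was not tested, and no other member lies on this chromosome.

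**Figure D4:**
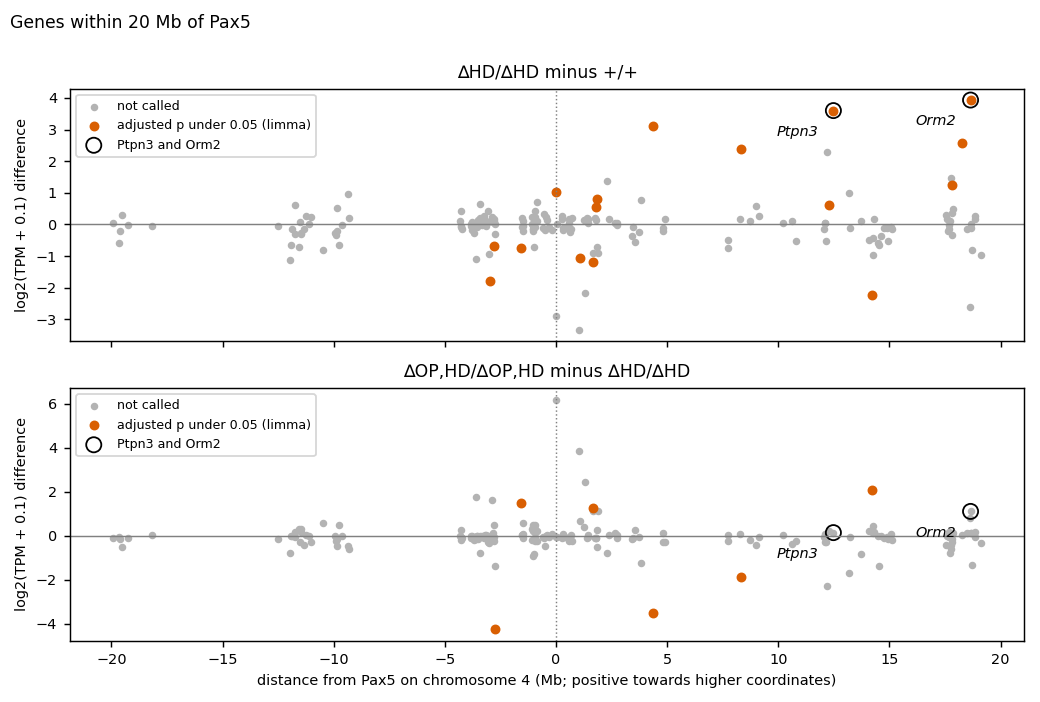
Log2 difference of each tested gene within 20 Mb of Pax5, plotted against its signed distance from Pax5 in Mb, for ∆HD/∆HD against +/+ and for ∆OP,HD/∆OP,HD against ∆HD/∆HD, with called genes in orange and Ptpn3 and Orm2 circled. In ∆HD/∆HD against +/+, 16 genes in the window are called, among them Ptpn3 at 12.5 Mb and Orm2 at 18.7 Mb.

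Chdh behaved unlike the rest. In the pro-B cell libraries of the first experiment it was above 2 TPM only in both ∆OP/∆OP libraries (4.67 and 5.89 TPM), in ∆CRD2/− replicate 1 (4.17 TPM, against 0.201 TPM in replicate 2) and in ∆CRD1,2/− (3.56 and 2.12 TPM). A list of 10 basophil and mast cell genes moved with it in part. Its sum was 298 and 390 TPM in ∆OP/∆OP and 348 TPM in ∆CRD2/− replicate 1, but 7.42 TPM in replicate 2, 10.9 to 38.2 TPM in +/+, and 12.4 and 11.9 TPM in ∆CRD1,2/−. None of the 7 listed genes that could be tested was called in ∆OP/∆OP, and all 7 had positive differences there (median 3.35 on the log2 scale). In each ∆OP/∆OP library 7 of the 10 listed genes were above 1 TPM and 2, Fcer1a and Il4, were at 0. The sum was low in Pax5-deficient progenitors (42.7 and 23.5 TPM), where Chdh was at 30.0 and 29.1 TPM. The part of these other cells in the Chdh level of ∆OP/∆OP was not tested. Among the C-terminal mutants Chdh and Ptpn3 were higher in ∆CRD1,2/− than in ∆CRD1/− (0.126 and 0.187 TPM for Chdh), by 3.49 ± 0.95 and 1.41 ± 0.36 on the log2 scale (limma adjusted p = 0.0448 and 0.0285, beside 1.35% of all genes).

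In Vav-Cre fl/fl progenitors against the +/+ replicates 1, 2 and 5, which had no part in choosing the genes, all 8 of 8 were higher, where 19.6% of all genes were called higher. Hnrnpll was at 19.6 and 23.4 TPM against 3.82, 2.32 and 2.61 TPM (2.87 ± 0.27 on the log2 scale, limma adjusted p = 1.70e-07), and Eef1akmt1 at 64.6 and 51.5 TPM against 5.67, 3.21 and 6.33 TPM (3.54 ± 0.22, adjusted p = 1.26e-09). Cgas was at 9.76 and 10.5 TPM against 3.23, 2.99 and 2.56 TPM (1.76 ± 0.20), Rgs10 at 73.3 and 57.3 TPM against 35.8, 31.0 and 26.2 TPM (1.07 ± 0.16) and Dennd3 at 41.7 and 34.9 TPM against 14.9, 16.4 and 16.6 TPM (1.25 ± 0.10). Chdh, at 0.965, 0.716 and 1.17 TPM in these +/+ libraries, differed by 4.84 ± 0.87 (limma adjusted p = 0.000271). None of the 8 genes had overlapping values. Markers of other cell types moved in the same comparison. Of 7 plasmacytoid dendritic cell genes 5 were higher (median 3.33 on the log2 scale, 691 and 1216 TPM in sum against 327 to 391 TPM). Of 7 T cell genes tested 4 were higher and 6 had positive differences (median 1.43, 496 and 455 TPM in sum against 110 to 135 TPM). Lck and Tcf7 made up most of the progenitor sums, and Cd3e and Cd3d were at 0 to 0.195 TPM there. In these 2 libraries 4 and 5 of the 10 listed T cell genes were above 1 TPM. Of 4 NK and innate lymphoid genes tested 3 were higher and 1 lower, with sums of 90.1 and 41.3 TPM against 19.8 to 25.5 TPM, and of 13 pro-B genes 2 were higher and 9 lower. The part of such cells in the levels of the 8 genes was not tested. Compared with ∆CRD1/∆CRD1 pro-B cells, the progenitors held more Chdh (6.47 ± 0.95, limma adjusted p = 7.77e-05), Rgs10 (1.64 ± 0.18, adjusted p = 3.50e-06) and Dennd3 (0.40 ± 0.11, adjusted p = 0.0139), but Hnrnpll, Eef1akmt1 and Cgas did not pass the test, with intervals of −1.19 to 0.03, −0.11 to 0.92 and −0.02 to 0.91.

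The separate experiment with heterozygous controls gave 5 calls. In fl/fl progenitors against fl/+ pro-B cells, where 20.8% of all genes were called higher, Hnrnpll (24.5 and 28.4 against 3.64 and 3.77 TPM, 2.80 ± 0.12 on the log2 scale), Eef1akmt1 (42.1 and 44.8 against 7.10 and 6.44 TPM, 2.66 ± 0.14), Cgas (10.2 and 11.8 against 3.27 and 3.72 TPM, 1.63 ± 0.16), Dennd3 (32.5 and 34.5 against 18.7 and 19.4 TPM, 0.81 ± 0.09) and Chdh (14 and 9.24 against 0.0695 and 0.154 TPM, 5.79 ± 0.31) were higher. Rgs10 was at 62.8 and 58.6 TPM against 62.2 and 43.5 TPM, and its groups overlapped. Ptpn3 was already at 7.91 and 8.27 TPM in fl/+ pro-B cells, against 9.32 and 14.6 TPM in fl/fl, and Orm2 at 5.47 and 11.5 TPM against 8.75 and 14.9 TPM. Both genes thus stood above each of the +/+ libraries of the first experiment in these heterozygous cells, a difference between experiments that was not tested.

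Cells whose only allele makes the paired domain were compared with both other groups of this experiment. In Prd/fl progenitors Hnrnpll was at 28.4 and 28.5 TPM, Eef1akmt1 at 52.1 and 40.4 TPM, Cgas at 12.3 and 10.7 TPM and Rgs10 at 78.8 and 55.0 TPM. Against fl/fl progenitors only Dennd3 was called (48.0 and 47.0 against 32.5 and 34.5 TPM, 0.50 ± 0.09 on the log2 scale, limma adjusted p = 0.0486), beside 1.17% of all genes called higher, and this call was lost in 9 of its alternatives. Against fl/+ pro-B cells, 6 of the 8 genes were higher (24.1% of all genes), namely Hnrnpll (2.91 ± 0.12), Eef1akmt1 (2.74 ± 0.14), Cgas (1.69 ± 0.16), Dennd3 (1.31 ± 0.09), Ptpn3 (0.86 ± 0.21, limma adjusted p = 0.0187) and Chdh (5.37 ± 0.31). In the comparison with fl/fl, the intervals of the other genes were −0.18 to 0.40 for Hnrnpll, −0.26 to 0.42 for Eef1akmt1, −0.32 to 0.45 for Cgas, −0.40 to 0.64 for Rgs10, −0.17 to 0.85 for Ptpn3, −1.15 to 0.32 for Chdh and −1.57 to 0.27 for Orm2.

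In the T cell lineage Pax5 is normally silent, and the early stages of this lineage were measured in a set of 17 libraries, whose TPM values (the mean of the 2 values deposited for each gene) are compared only within the set. The stages run from the lymphoid-primed multipotent progenitor of the bone marrow (LMPP) through the thymic double-negative stages DN1, DN2a, DN2b, DN3a and DN3b, with 2 or 3 libraries each, and DN3a cells of Rag2−/− mice were added as a description. In DN1, DN2a and DN2b 2 of the 3 libraries carry the same replicate number in the labels, and whether they came from the same animals is not given. Over 6823 genes these pairs differed with a robust SD of 0.174, 0.259 and 0.271 on the log2 scale. The pairs of LMPP, DN3a and DN3b lay at 0.151 to 0.309. In DN2a (0.388 and 0.604 for the other pairs) and DN2b (0.325 and 0.433) the same-numbered pair was the closest. In DN1 (0.154 and 0.208) it was not. The same-numbered libraries were fitted as separate samples, and whether they are independent was not tested. A moderated F test over the 6 wild-type stages called 7 of the 8 genes, all but Orm2 (limma adjusted p = 0.264), in a set in which 82.6% of 13405 genes were called. With same-numbered libraries averaged (12 samples) it called 6, Eef1akmt1 being lost (adjusted p = 0.0878). Steps between neighbouring stages called 18.3% (LMPP to DN1), 31.6%, 17.5%, 44.3% and 52.5% (DN3a to DN3b) of all genes, so a called step was common.

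Hnrnpll rose along the path. It was at 36.5 and 40.0 TPM in LMPP, at 45.3, 37.4 and 44.1 in DN1 and at 38.0, 44.2 and 37.2 in DN2a, stages whose values overlapped. It was then at 53.8, 68.2 and 54.4 in DN2b (0.56 ± 0.12 on the log2 scale over DN2a, limma adjusted p = 0.00702), 68.5 and 73.7 in DN3a and 106 and 117 in DN3b (0.65 ± 0.15 over DN3a, adjusted p = 0.00315). The median of all genes moved by −0.40 between DN3a and DN3b, so that the last step is larger relative to it. Eef1akmt1 was highest in DN2a (93.3, 77.6 and 114 TPM) and lowest in LMPP (62.9 and 46.0 TPM), and DN2a exceeded DN1 by 0.66 ± 0.18 (limma adjusted p = 0.0163, but 0.103 with same-numbered libraries averaged), while its later stages overlapped.

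Dennd3 fell between DN1 and DN3a. It was at 24.1 and 29.0 TPM in LMPP, at 46.6, 50 and 48.4 in DN1, at 17.8, 23.5 and 15.4 in DN2b and at 4.10 and 3.30 in DN3a. The step from DN2b to DN3a was −2.31 ± 0.22 on the log2 scale (limma adjusted p = 5.50e-06), and DN3b (5.16 and 4.24 TPM) lay close to DN3a. Cgas was highest in LMPP (25.6 and 24.9 TPM), stood between 12 and 19.6 in DN1 to DN2b, dropped to 6.22 and 7.14 in DN3a (−1.29 ± 0.20 against DN2b, limma adjusted p = 0.000263) and was higher again in DN3b (14 and 13.9 TPM, 1.06 ± 0.22, adjusted p = 0.00125). In Rag2−/− DN3a cells Cgas was at 1.71 and 2.18 TPM, below both wild-type DN3a libraries. Ptpn3 followed a shallower course, from 7.98, 8.20 and 9.32 TPM in DN1 to 2.22 and 4.41 TPM in DN3a, with a step of −0.99 ± 0.32 from DN2b to DN3a (limma adjusted p = 0.0261).

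Chdh had its highest mean in DN2a and Rgs10 in DN1, both before Hnrnpll. Chdh was at 28.8 and 36.7 TPM in LMPP and at 148, 168 and 191 in DN1 (2.37 ± 0.25 on the log2 scale, limma adjusted p = 2.28e-05), reached 199, 303 and 161 in DN2a, overlapped this range in DN2b (199, 249 and 148) and was lower in DN3a (119 and 109, −0.77 ± 0.25, adjusted p = 0.0251). These files name the gene with a suffix whose meaning is not given. Rgs10 was at 139, 129 and 128 TPM in DN1, above LMPP (82.6 and 64.2 TPM, 0.85 ± 0.24, limma adjusted p = 0.0245) and DN2a (89.3, 68.8 and 90.6 TPM, −0.68 ± 0.21, adjusted p = 0.0298), and its DN3a libraries were far apart at 61.0 and 115 TPM. Both Rgs10 steps were lost with same-numbered libraries averaged (limma adjusted p = 0.0773 and 0.112). Orm2 was at 0 to 2.71 TPM throughout.

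**Figure D5:**
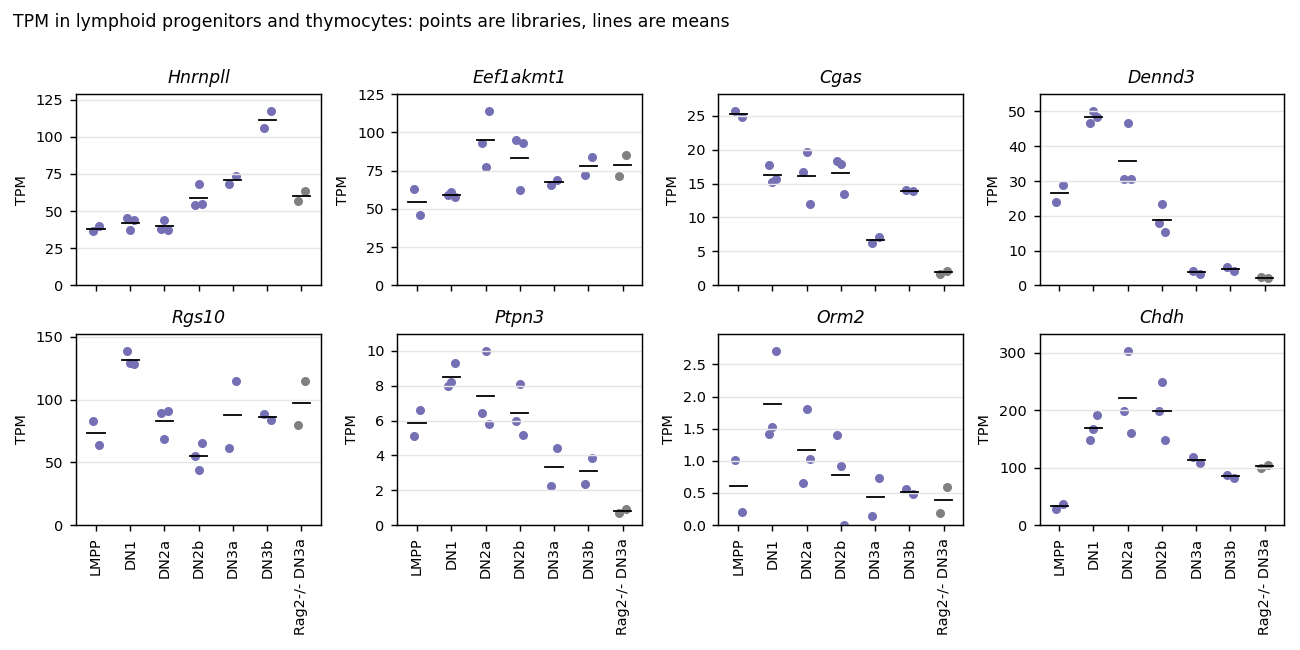
Level of the 8 genes in TPM (linear axes) in LMPP, the 5 wild-type double-negative thymic stages and Rag2−/− DN3a, with each point 1 library and the short lines the stage means. Hnrnpll is highest in DN3b (106 and 117 TPM), Dennd3 is highest in DN1 and lowest from DN3a on, and Chdh rises between LMPP (28.8 and 36.7 TPM) and DN1 (148 to 191 TPM).

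Across 12 group means of the pro-B and progenitor libraries (11 genotypes, +/+ split into its 50-nt and 100-nt libraries), Pearson's r of the log2 levels was 0.937 for Hnrnpll and Cgas, 0.903 for Hnrnpll and Eef1akmt1 and 0.910 for Hnrnpll and Dennd3, and 0.914 for Ptpn3 and Orm2. It was 0.225 for Hnrnpll and Rgs10 and −0.242 for Hnrnpll and Ptpn3. These points share the contrast that chose the genes, and are given as a description. Among 10972 genes the one most like Hnrnpll (r = 0.958), Eef1akmt1 (0.954) and Cgas (0.924) was Igf2bp2, an RNA-binding protein, at 1.36 and 1.39 TPM in the +/+ means, 1.56 TPM in ∆HD/∆HD and 3.00 to 5.56 TPM in every other group. Galm, which lies 65.1 kb from Hnrnpll, was the next for Hnrnpll (0.894). For Chdh the nearest gene was Itgax (0.979), the CD11c integrin chain, at 19.0 TPM in Pax5-deficient progenitors and 0.034 to 1.82 TPM in the other means. For Ptpn3 it was Htt (0.908), for Rgs10 Cenpt (0.861), for Dennd3 Tmem132a (0.868) and for Orm2 Vps18 (0.876).

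Genes of the same pathways were followed from fixed lists. Among 6 Groucho-family genes, Tle3 (192 against 191 TPM) and Tle4 (66.7 against 66.0 TPM) did not pass the test in ∆OP,HD/∆OP,HD against ∆HD/∆HD, whereas Aes, a short family member, was lower at 346 against 683 TPM (−0.98 ± 0.13 on the log2 scale, limma adjusted p = 0.00132) and Tle1 at 1.12 against 3.70 TPM (−1.65 ± 0.28, adjusted p = 0.0175). Tle1 lies on the Pax5 chromosome, 27.4 Mb from the gene and outside the 20-Mb window counted above. The part of this position in the Tle1 level was not tested. Aes was also lower in ∆CRD2/− than in +/+ (334 against 652 TPM, −0.97 ± 0.13, limma adjusted p = 0.000347). Of 7 CD45 splicing genes none was called in the central-domain mutants, among them Hnrnpl (641 against 659 TPM in ∆OP,HD/∆OP,HD against ∆HD/∆HD), the paralogue of Hnrnpll. Of 9 cGAS-STING genes none was called in that comparison, and in Pax5-deficient progenitors 5 were higher and 1 lower, beside 19.6% and 17.5% of all genes, with Tmem173, which encodes STING, at 350 against 74.7 TPM (2.24 ± 0.15, limma adjusted p = 2.07e-09).

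In ∆OP,HD/∆OP,HD against ∆HD/∆HD none of 11 RGS genes, 14 DENN-domain and partner genes, 3 phosphatases of the Ptpn3 type, 5 choline oxidation genes, 5 eEF1A methylation genes and 7 acute-phase genes was called, the relatives of the remaining members, beside 0.114% of all genes. Their median log2 differences ran from −0.29 for the choline oxidation genes to 0.82 for the acute-phase genes, against 0.00 for all genes. In Pax5-deficient progenitors 4 RGS genes were higher and 3 lower, no DENN-domain gene was higher and 4 were lower, and 3 of the 5 eEF1A methylation genes were higher, beside 19.6% of all genes higher and 17.5% lower in that contrast.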

How the data were processed

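RNA sequencing files of 31 pro-B and progenitor samples held gene-level TPM values (reads scaled for gene length and library size) as deposited, made by the authors from reads trimmed to 50 nt, aligned to GRCm38/mm10 with STAR 2.4.2a and counted per RefSeq gene, and 8 of these files also held a column of raw read counts as deposited by the authors, which repeats the counts of only 2 libraries (+/+ replicate 3 and fl/+ replicate 1) and was used to recover gene lengths and to check the row order. Since low TPM values were whole multiples of the value of 1 read (100% within 0.01), reads per gene were recovered. The 17 lymphoid files, aligned by the authors with TopHat 1.4.1 and named for mm9, held 2 TPM values per gene, recorded here as a signal because each column sums past the total that TPM allows, and their mean was used as deposited. In those files Cgas, Eef1akmt1 and Chdh were found as Mb21d1, N6amt2 and Chdh_IMP_OVL. In 8 files gene names were absent, and their row order was checked against the named files. Samples of other assays were not analysed here. Bowtie 1.0.0 and SAMtools 1.9, also named in the submitters' processing notes, belong to the ChIP-seq and ATAC-seq methods.

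Groups were taken from the labels. The test was limma 3.58.1 in R 4.3.3 on log2(TPM + 0.1), with a trend, over genes above 1 TPM in at least 1 sample. Fold changes on this scale understate changes of low genes. The model of 25 samples had a term for read length (50 or 100 nt), so that 100-nt mutants were compared with +/+ replicates 3 and 4 and 50-nt groups with replicates 1, 2 and 5. The Prd experiment (6 samples) and the wild-type lymphoid stages (15 samples, moderated F test) were fitted apart, and p-values were adjusted by Benjamini-Hochberg over all genes, with calls at 0.05. The code was tested on simulated data. Nothing in the sources says that all replicates were separate animals, so p-values measure the spread between these samples. The members and the background lists were chosen with earlier results of these data known. All 8 members were named, the 3 genes most like each member were found by Pearson correlation over group means, and other names come from fixed lists or from counts of few calls. Alternatives covered pseudocounts of 1 and 0.01, no filter, no trend, median-of-ratios scaling, stricter thresholds, smaller models, no read length term, other +/+ controls, a replicate block, leaving out each replicate, edgeR 4.0.16 on recovered reads and, chosen after seeing the data, leaving out libraries with a granulocyte sum above 5000 TPM and averaging lymphoid libraries that share a replicate number. Intervals are 95% intervals of the fit. Tables were handled in Python 3.11.15 with pandas 2.3.3, and plots drawn with matplotlib 3.10.9.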

Additional observations from a re-analysis of the deposited data

Results flagged for a closer look

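Of the 8 genes, Rgs10 alone was called between the hemizygous and the homozygous form of ∆CRD2 and of ∆CRD1,2 by limma's test of the difference itself, and the 2 forms of ∆CRD1 were not compared. The log2 difference was 1.41 ± 0.18 in ∆CRD2/− against ∆CRD2/∆CRD2 (129 and 167 against 60.4 and 50.7 TPM, higher in 2 of 2 libraries). It was 2.32 ± 0.18 in ∆CRD1,2/− against ∆CRD1,2/∆CRD1,2 (29.7 and 41.2 against 7.38 and 6.48 TPM, higher in 2 of 2 libraries), and the ∆CRD1,2/− cells were sorted by a different gate. In 8 checks for a single deviating library among the 5 +/+ samples, 1 for each gene, 0 libraries were found.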

How the results depend on the processing

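Of all values recomputed under an alternative, 1861 kept their direction and their side of the threshold or stayed close to their size, 86 lost and 14 gained a call, 23 counts moved and 35 uncalled differences changed sign. The cause of the changes was not tested. The count in ∆OP,HD/∆OP,HD against ∆HD/∆HD was 4, and 3 to 5 over 14 alternatives. In ∆HD/∆HD against +/+ the count of 2 became 1 in the model of the compared groups and +/+ alone, 5 against +/+ replicates 1, 2 and 5, 1 without the granulocyte-rich libraries, and 1 to 2 when single libraries were left out. With the groups and +/+ alone, 2 of 5 members were called in ∆CRD2/− and 0 of 5 in ∆CRD2/∆CRD2, where leaving out single libraries gave 2 to 5 and leaving out the granulocyte-rich libraries gave 3. Requiring a fold above 3 and a mean above 5 TPM left 3 in ∆CRD1/−, 3 in ∆CRD1,2/−, 2 in ∆CRD2/∆CRD2, 4 in ∆CRD1,2/∆CRD1,2, 2 in ∆CRD1/∆CRD1 and 0 in Prd/fl against fl/fl. The single call in Prd/fl against fl/fl (Dennd3) became 0 with a pseudocount of 0.01, without the filter, without the trend and with median-of-ratios scaling, and 0 to 1 when single libraries were left out.

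Label replicate numbers are shared between groups, but replicate differences of the groups correlated at −0.232 to 0.153, so the numbers were not treated as pairs. With a replicate block the count in Prd/fl against fl/fl was 0 (Dennd3, limma adjusted p = 0.0811), and no other count left the range of 1.5 times.

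The differences that changed sign were all uncalled. Against +/+ replicates 1, 2 and 5 Chdh was at −0.11 in ∆HD/∆HD, −0.44 in ∆OP,HD/∆OP,HD and −0.29 in ∆CRD2/∆CRD2, and Orm2 at −0.43 in ∆CRD2/−, −0.19 in ∆CRD1/−, −0.38 in ∆CRD1,2/− and −0.41 in ∆CRD2/∆CRD2. Without a read length term Chdh was at −0.18 in ∆OP,HD/∆OP,HD and −0.029 in ∆CRD2/∆CRD2. Without the granulocyte-rich libraries Chdh was at −0.17 in ∆OP,HD/∆OP,HD, −0.68 in ∆CRD2/− and −0.31 in ∆CRD2/∆CRD2, and in ∆HD/∆HD Hnrnpll was at 0.32 and Rgs10 at 0.056. Cgas in Prd/fl against fl/fl was at −0.010 with median-of-ratios scaling and −0.0074 with edgeR. Leaving out single libraries, Chdh ranged from −1.16 to 0.52 in ∆OP,HD/∆OP,HD against ∆HD/∆HD, −0.30 to 1.38 in ∆HD/∆HD, −0.61 to 1.04 in ∆OP,HD/∆OP,HD, −1.13 to 2.70 in ∆CRD2/− and −0.76 to 1.48 in ∆CRD2/∆CRD2. Hnrnpll ranged from −0.58 to 0.32 and Rgs10 from −0.18 to 0.056 in ∆HD/∆HD, and Orm2 from −0.0064 to 0.50 in ∆CRD1/∆CRD1. In fl/fl against fl/+ Orm2 ranged from −0.0056 to 1.05 and Rgs10 from −0.035 to 0.48, and in Prd/fl against fl/fl Eef1akmt1 ranged from −0.11 to 0.26, Cgas from −0.041 to 0.16 and Rgs10 from −0.14 to 0.38. A group left with 1 library was assumed to vary like the other groups.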
